A study of Mus musculus with 8 samples.

Results

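The MHC class II presentation genes were followed through 4 groups of sorted mouse cells. The set holds 9 genes: the classical chains H2-Aa, H2-Ab1 and H2-Eb1, the invariant chain Cd74, the peptide editors H2-DMa and H2-DMb1, the editor inhibitors H2-Oa and H2-Ob, and the transactivator Ciita. All probe sets annotated to 1 of these symbols were taken, with older symbols accepted, whatever their values. Of 22690 probe sets on the array, 11 met this rule, and they cover 7 of the 9 genes. All 11 were at or above an intensity of 38.4, the filter value, on at least 2 of the 8 arrays and were tested. H2-DMb1 is read on this array by 2 probe sets that also match H2-DMb2, and H2-Ob by 1 that also matches Gm20506. These 3 shared probe sets are described separately and enter no count.

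RNA came from cells positive for CD45, which marks cells of the blood lineages, and for Sca1, found on mouse blood stem cells and also on various differentiated cells. They were taken from C57BL/6 mice aged 6 to 8 weeks, with 2 arrays in each of 4 groups. The first group came from muscle injured with cardiotoxin, a snake venom protein that destroys muscle fibres, in recipients of a bone marrow transplant. The second came from cardiotoxin-injured muscle of untransplanted mice, the third from uninjured muscle and the fourth from bone marrow. The sources used here do not give the time after injury or transplantation, the donor of the marrow or any conditioning of the recipients. Nor do the labels say whether the 2 replicates of a group were separate animals, so the spread behind each p-value is that of these arrays and may be technical.

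MHC class II molecules are pairs of an alpha and a beta chain that carry peptides from taken-up proteins to the cell surface, where helper T cells read them. Dendritic cells, B cells and activated macrophages are the main cells that make them. New chains assemble with the invariant chain, which fills the groove until proteases of the endosome cut it away. H2-DM then exchanges the remaining fragment for other peptides, and H2-O, made mainly by B cells, holds H2-DM back. Ciita, itself induced by interferon gamma in many cells, is recruited to class II promoters by factors that sit on conserved elements called the X and Y boxes. C57BL/6 mice transcribe H2-Eb1 but carry a defective H2-Ea gene and so show no I-E protein at the surface. In the annotation used here H2-Ea is listed as a transcribed pseudogene, and its 3 probe sets stayed between 2.19 and 49.5 on the 8 arrays.

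The 7 class II genes on chromosome 17 lie in the order H2-Oa, H2-DMa, H2-DMb1, H2-Ob, H2-Ab1, H2-Aa and H2-Eb1, with H2-DMb2 between H2-DMa and H2-DMb1. Ciita and Cd74 lie on other chromosomes. RefSeq promoter windows of 300 bases (250 before and 50 after a gene start, build GRCm38.p6) matched 6 of the 9 genes. The last 120 bases before the start are shown for the 2 classical chains with a probe set that passed the test as lower in transplanted than in untransplanted injured muscle, and for the 2 H2-O chains, whose probe sets were highest in bone marrow. Capitals mark the letters matched to the Y box (CTGATTGG, or its shorter form TGATTGG) and upstream of it to the X box (CCTAGNNAC, or the shorter AGNAAC, which fixes a free letter to A). The windows are chr17:34287824-34287943 on the minus strand for H2-Aa, chr17:34305747-34305866 on the plus strand for H2-Eb1, chr17:34092259-34092378 on the plus strand for H2-Oa and chr17:34238785-34238904 on the plus strand for H2-Ob.
H2-Aa: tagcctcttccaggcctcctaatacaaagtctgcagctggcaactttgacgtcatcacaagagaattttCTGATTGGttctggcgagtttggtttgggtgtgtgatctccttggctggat
H2-Eb1: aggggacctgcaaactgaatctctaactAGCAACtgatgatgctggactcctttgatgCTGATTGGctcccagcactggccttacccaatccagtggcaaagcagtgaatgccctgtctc
H2-Oa: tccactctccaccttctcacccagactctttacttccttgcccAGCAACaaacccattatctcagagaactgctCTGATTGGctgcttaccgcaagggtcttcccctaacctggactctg
H2-Ob: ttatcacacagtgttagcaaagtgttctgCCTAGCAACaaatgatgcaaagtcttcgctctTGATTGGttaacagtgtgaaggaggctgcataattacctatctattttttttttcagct

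Searched on both strands, CTGATTGG began 51 bases before the start of H2-Aa, 62 before that of H2-Eb1 and 46 before that of H2-Oa. It was in 4.1% of the 32851 windows of the same length that were searched. The overlapping shorter form TGATTGG was also found 59 bases before H2-Ob and 63 before H2-DMb1, against 7.82% of all windows. CCTAGNNAC was in the windows of H2-Ob and H2-DMb1 and in 3.91% of all. AGNAAC is the end of CCTAGNNAC with a free letter fixed to A. It lay upstream of the Y box letters in H2-Eb1, H2-Oa, H2-Ob and H2-DMb1, with 25, 26, 23 and 26 bases between them. AGNAAC by itself was in 48.1% of all windows, and AGNAAC followed by TGATTGG within 40 bases on the gene strand in 66 windows, or 0.201%. These shorter forms and the pair were chosen after the windows had been read. In the window of H2-Aa the X box letters were not found, and in those of H2-DMa neither form of the Y box was. TTCNNNGAA, the palindromic letters of an interferon gamma activated site, were in none of the windows of these 6 genes and in 8.3% of all. A match is a description of letters, not of a bound site.

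**Figure D1:**
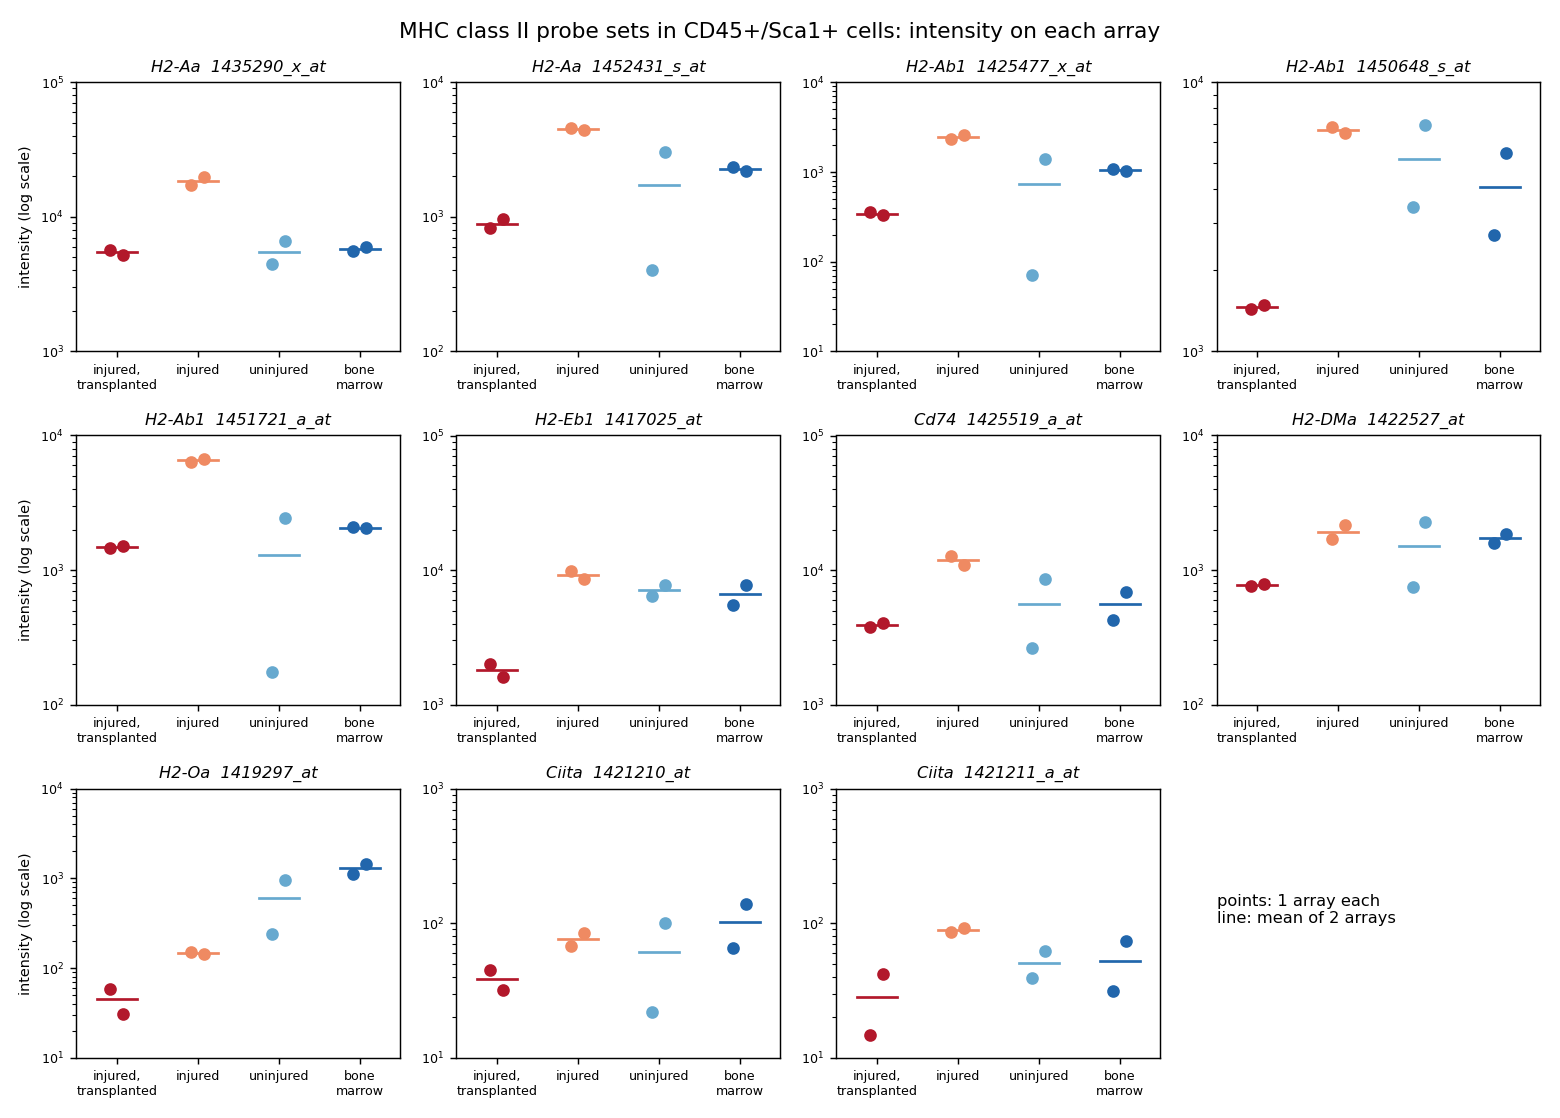
Intensity of the 11 MHC class II probe sets on each array (log axis, 1 panel for each probe set), in transplanted injured muscle, untransplanted injured muscle, uninjured muscle and bone marrow; points are single arrays and lines the mean of 2. The pairs of injured muscle arrays lie close together for the classical chains, Cd74 and H2-DMa, while the uninjured muscle arrays lie far apart for H2-Ab1 (70.3 and 1391 for 1 of its probe sets), and H2-Oa is highest in bone marrow.

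The 8 arrays differed in RNA quality. The ratio of the 3' to the 5' control probe sets of Gapdh was 0.882 and 0.868 in transplanted injured muscle and 0.833 and 0.808 in untransplanted injured muscle, but 46.9 and 13.6 in uninjured muscle and 24.4 and 10.7 in bone marrow (replicate 1 before replicate 2, here and below). For beta-actin this ratio was 1.18 to 1.23 on the 4 injured muscle arrays, 19.0 and 10.1 in uninjured muscle and 5.75 and 5.68 in bone marrow. A higher ratio means that less of the 5' part of the transcript was labelled. The comparison of the 2 injured groups is therefore between arrays of like control ratios, and each comparison of an injured group with uninjured muscle or bone marrow is not. The part of RNA quality in those comparisons was not tested. Ptprc, the gene of CD45, lay between 4924 and 6996 on all 8 arrays, and Ly6a, the gene of Sca1, was not analysed here. Fewer cells of a type and less RNA per cell cannot be told apart in such bulk samples.

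In injured muscle of transplanted mice the class II genes were lower than in injured muscle of untransplanted mice. All 11 probe sets were lower on both transplanted arrays than on either untransplanted array, as were 25.3% of all tested probe sets. Their log2 fold changes ran from -2.82 to -0.92 with a median of -1.75, against a median of 0.0048 over all 16289 tested probe sets. H2-Eb1 and 1 probe set of H2-Aa passed the test (limma on all 8 arrays, two-sided, Benjamini-Hochberg adjusted p under 0.05), which called 0.227% of all probe sets lower. At an unadjusted p under 0.05 the number was 9 of 11, against 8.75% of all probe sets.

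The fit of all 8 arrays shares 1 estimate of the spread over the 4 groups, and the 2 uninjured muscle arrays, which lie far apart for these genes, enter it. With only the 4 injured muscle arrays fitted, 9 of 11 probe sets passed the test as lower, and 4.64% of all probe sets. The exceptions were the 2 probe sets of Ciita, with adjusted p-values of 0.209 and 0.0753 in limma. Without uninjured muscle replicate 1 or 2 the number called lower was 8, against 1.34% or 1.47% of all probe sets. Without bone marrow replicate 1 or 2 it was 1, against 0.0368% of all, and without any 1 of the 4 injured muscle arrays it was 0, as it was over all probe sets. In the 8-array fit and 18 alternatives every member probe set tested had a negative fold change. Both transplanted arrays were below both untransplanted injured ones, so only quantile normalization and median centring could have changed a sign.

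H2-Eb1 encodes the beta chain of I-E. Its intensity was 1998 and 1600 in transplanted injured muscle, 9782 and 8611 in untransplanted injured muscle, 6418 and 7762 in uninjured muscle and 5545 and 7720 in bone marrow. The transplanted arrays were lower than all 6 others, which overlapped in part. H2-Eb1 fell in transplanted against untransplanted injured muscle by 2.36 on the log2 scale (SE 0.23, adjusted p = 0.0151 in limma), or 5.12-fold. It also fell by 1.98 against uninjured muscle (SE 0.23, adjusted p = 0.00107 in limma). Against bone marrow it fell by 1.87 (SE 0.23, adjusted p = 0.000855 in limma). Between untransplanted injured and uninjured muscle its log2 fold change was 0.38 (SE 0.23, adjusted p = 0.239 in limma). H2-Eb1 was the member whose uninjured muscle arrays were closest, at 1.21-fold.

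H2-Aa encodes the alpha chain of I-A, the class II molecule that C57BL/6 cells show at the surface. Probe set 1435290_x_at, of a type that can bind related transcripts, gave 5713 and 5202 in transplanted injured muscle, 17131 and 19782 in untransplanted injured muscle, 4442 and 6568 in uninjured muscle and 5559 and 6003 in bone marrow. Only the untransplanted injured arrays stood apart, and they were above all others. It fell by 1.75 in transplanted against untransplanted injured muscle (SE 0.21, adjusted p = 0.0291 in limma) and rose by 1.77 in untransplanted injured against uninjured muscle (SE 0.21, adjusted p = 0.00190 in limma). Between transplanted injured and uninjured muscle its log2 fold change was 0.01 (SE 0.21, adjusted p = 0.966 in limma).

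The other H2-Aa probe set, 1452431_s_at, gave 823 and 958 in transplanted injured muscle, 4541 and 4390 in untransplanted injured muscle, 404 and 3021 in uninjured muscle and 2359 and 2180 in bone marrow. Both injured pairs were tight, and the uninjured pair spanned 7.47-fold. Its log2 fold change in transplanted against untransplanted injured muscle was -2.32, with an SE of 0.75 and an adjusted p of 0.342 in limma on all 8 arrays. With only the 4 injured arrays fitted, the same difference for H2-Aa 1452431_s_at had an SE of 0.13 and an adjusted p of 6.14e-06.

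H2-Ab1, the beta chain of I-A, has 3 probe sets, and they went the same way between the 2 injured groups. Probe set 1450648_s_at gave 1444 and 1486 in transplanted injured muscle, 6836 and 6509 in untransplanted injured muscle, 3447 and 6939 in uninjured muscle and 2720 and 5477 in bone marrow. Probe set 1451721_a_at gave 1449 and 1519 in transplanted injured muscle, 6397 and 6724 in untransplanted injured muscle, 175 and 2421 in uninjured muscle and 2079 and 2043 in bone marrow. Probe set 1425477_x_at gave 355 and 333 in transplanted injured muscle, 2344 and 2566 in untransplanted injured muscle, 70.3 and 1391 in uninjured muscle and 1086 and 1021 in bone marrow. On each of them both transplanted arrays were below both untransplanted injured ones, and the 2 arrays of each injured group lay within 1.09-fold of each other. Their log2 fold changes were -2.18 (SE 0.39), -2.14 (SE 0.96) and -2.82 (SE 1.08), with adjusted p-values of 0.0795, 0.596 and 0.469 in limma. With only the 4 injured arrays fitted, the H2-Ab1 p-values were 6.14e-06, 6.38e-06 and 4.33e-06.

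Cd74, the invariant chain, gave 3744 and 4068 in transplanted injured muscle, 12678 and 10977 in untransplanted injured muscle, 2655 and 8581 in uninjured muscle and 4289 and 6847 in bone marrow. The untransplanted injured arrays were again the highest, and the uninjured arrays lay on both sides of the transplanted and bone marrow ones. Its log2 fold change in transplanted against untransplanted injured muscle was -1.59 (SE 0.48, adjusted p = 0.297 in limma), and it passed with only the 4 arrays fitted (Cd74 adjusted p = 8.69e-05).

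H2-DMa, the alpha chain of the peptide editor, gave 766 and 793 in transplanted injured muscle, 1690 and 2176 in untransplanted injured muscle, 744 and 2280 in uninjured muscle and 1602 and 1842 in bone marrow. The transplanted pair was below both the untransplanted injured and the bone marrow pair. Its log2 fold change against untransplanted injured muscle was -1.29 (SE 0.47, adjusted p = 0.417 in limma, and 0.000667 for H2-DMa with only the 4 arrays fitted). The 2 probe sets that H2-DMb1 shares with H2-DMb2 showed the same order between the injured groups. Probe set 1449580_s_at gave 837 and 726 in transplanted injured muscle, 1709 and 1976 in untransplanted injured muscle, 168 and 978 in uninjured muscle and 1298 and 801 in bone marrow. Probe set 1418638_at gave 211 and 200 in transplanted injured muscle, 448 and 478 in untransplanted injured muscle, 115 and 331 in uninjured muscle and 305 and 253 in bone marrow. A probe set of H2-DMb2 alone averaged 64.1 ± 22.1 in transplanted and 75.3 ± 13.9 in untransplanted injured muscle (SD, n = 2 each).

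Ciita was dim on this array. Probe set 1421210_at gave 45.2 and 32.1 in transplanted injured muscle, 67.6 and 85.0 in untransplanted injured muscle, 22.0 and 101 in uninjured muscle and 65.4 and 139 in bone marrow. Probe set 1421211_a_at gave 14.7 and 42.0 in transplanted injured muscle, 85.5 and 92.8 in untransplanted injured muscle, 38.9 and 61.8 in uninjured muscle and 31.1 and 73.2 in bone marrow. Each probe set was at or above 38.4 on 6 of the 8 arrays, and on both the 2 transplanted arrays were below the 2 untransplanted injured ones. The log2 fold changes between these groups were -0.92 (SE 0.67, adjusted p = 0.897 in limma) and -1.66 (SE 0.58, adjusted p = 0.393 in limma). No comparison called either Ciita probe set in the 8-array fit.

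**Figure D2:**
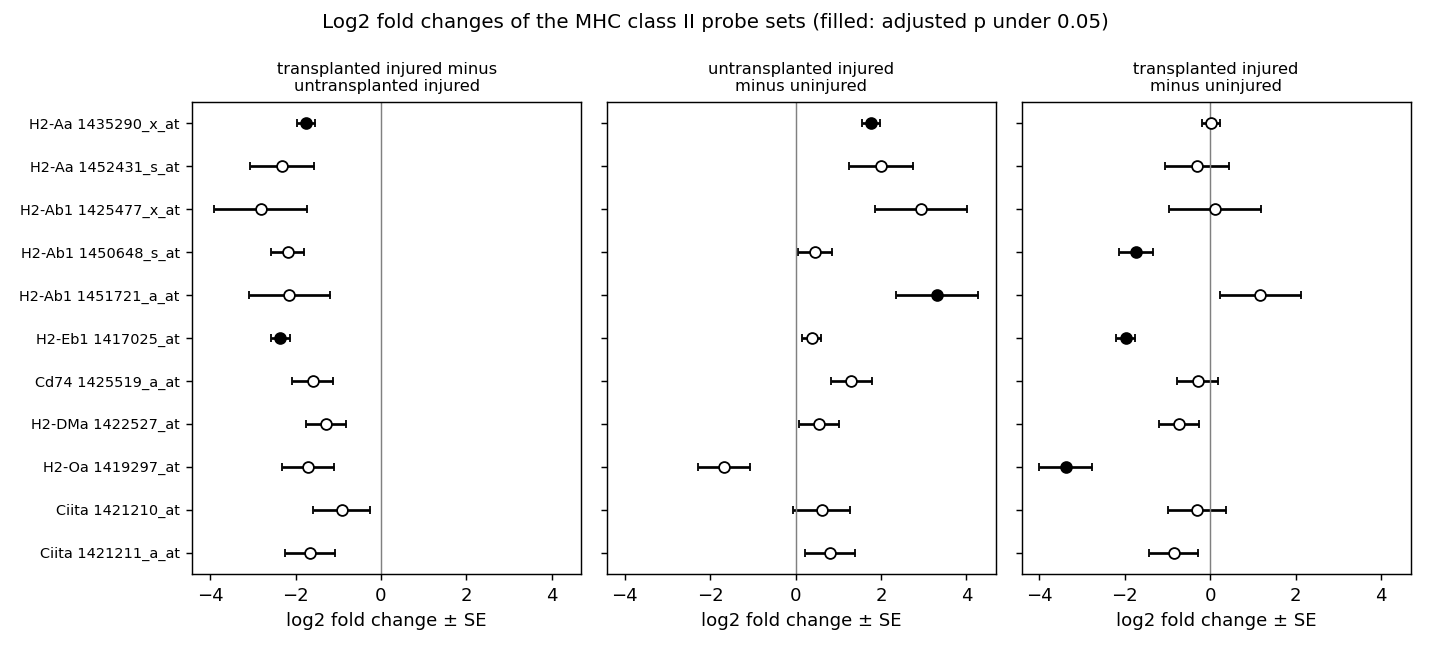
Log2 fold changes of the 11 probe sets with their standard errors in limma, for transplanted against untransplanted injured muscle (left), untransplanted injured against uninjured muscle (middle) and transplanted injured against uninjured muscle (right); filled points have an adjusted p under 0.05. All points lie below 0 on the left, from -2.82 to -0.92, and 10 of 11 lie above 0 in the middle, with H2-Oa at -1.68 the exception.

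H2-Oa, the alpha chain of the inhibitor of H2-DM, followed another order. Its intensity was 58.5 and 30.8 in transplanted injured muscle, 152 and 144 in untransplanted injured muscle, 240 and 968 in uninjured muscle and 1132 and 1446 in bone marrow. The 4 groups did not overlap, and each step down had both arrays below both arrays of the group above it. H2-Oa fell by 4.78 in transplanted injured muscle against bone marrow (SE 0.62, adjusted p = 0.00114 in limma), or 27.5-fold. It fell by 3.08 in untransplanted injured muscle against bone marrow (SE 0.62, adjusted p = 0.00785 in limma). Against uninjured muscle it fell by 3.39 in transplanted injured muscle (SE 0.62, adjusted p = 0.00561 in limma), and its log2 fold change in untransplanted injured muscle was -1.68 (SE 0.62, adjusted p = 0.0781 in limma). The neighbours in this order did not pass the test against each other, with adjusted p-values of 0.417, 0.0781 and 0.265 from the lowest pair to the highest.

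The probe set that H2-Ob, the beta chain of the same inhibitor, shares with Gm20506 had the same order. It gave 8.04 and 4.94 in transplanted injured muscle, 16.4 and 56.0 in untransplanted injured muscle, 100 and 262 in uninjured muscle and 454 and 641 in bone marrow. Both transplanted arrays were under 38.4, so its fold against bone marrow is given as at least 12.8-fold lower (adjusted p = 0.000573 in limma). It fell by 2.25 in untransplanted injured against uninjured muscle (SE 0.63, adjusted p = 0.0337 in limma) and by 3.96 against bone marrow (SE 0.63, adjusted p = 0.00297 in limma).

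The summed intensity of B cell markers was also higher in uninjured muscle and bone marrow than in either injured group. It was taken over the 7 of 8 listed genes with a probe set of 1 symbol, and was 483 and 348 in transplanted injured muscle, 521 and 591 in untransplanted injured muscle, 4121 and 7154 in uninjured muscle and 11698 and 15316 in bone marrow. In the injured groups 4 or 5 of the 7 were under 38.4 on each array, and none was listed at 0. Of the 6 markers tested, 5 fell in untransplanted injured against uninjured muscle, where 15.1% of all 9506 genes fell, and 0 were called between the 2 injured groups. There the order of the sums rests on Cd22 and Cd79b, at 250 ± 5.13 and 58.3 ± 25.9 in transplanted and 370 ± 22.4 and 113 ± 9.64 in untransplanted injured muscle (SD, n = 2 each). The median log2 fold change of the 6 was 0.23. Among them Cd79a, Blk, Vpreb3 and Ms4a1, the gene of CD20, averaged under 38.4 in both injured groups. Cd79a averaged 26.9 ± 15.2 in transplanted and 2.05 ± 0.519 in untransplanted injured muscle. Ms4a1 averaged 16.0 ± 5.25 in untransplanted injured and 1856 ± 252 in uninjured muscle (SD, n = 2 each). The part of B cell content in the values of H2-Oa and of the H2-Ob probe set was not tested.

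**Figure D3:**
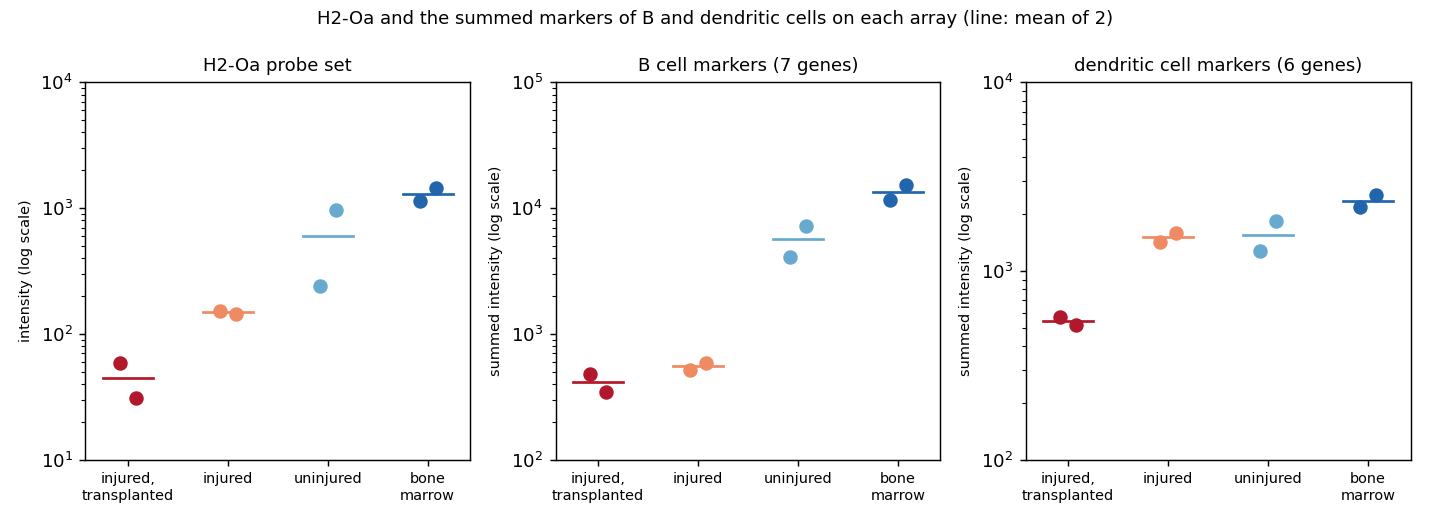
Intensity of the H2-Oa probe set and the summed intensity of 7 B cell markers and of 6 dendritic cell markers on each array (log axes), in transplanted injured muscle, untransplanted injured muscle, uninjured muscle and bone marrow; points are single arrays and lines the mean of 2. H2-Oa and the B cell sum are lowest in transplanted injured muscle and highest in bone marrow, and the dendritic cell sum is lowest in transplanted injured muscle (573 and 516).

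Related presentation genes were not called lower in transplanted against untransplanted injured muscle. Of 6 tested class II processing genes, which are endosomal proteases and a thiol reductase that prepare peptides or cut the invariant chain, 0 were called lower or higher, where 0.274% of all genes were lower and 0.0421% higher. Their median log2 fold change was 0.37, against -0.0040 over all tested genes. Ctsl, a protease that cuts the invariant chain, averaged 15234.5 ± 2202 in transplanted and 7110 ± 307 in untransplanted injured muscle, a log2 fold change of 1.09 (SE 0.32, adjusted p = 0.285 in limma), and it was called higher with only the 4 arrays fitted. Ctss, the main such protease of dendritic cells and macrophages, averaged 15272 ± 1379 in transplanted and 12294.5 ± 473 in untransplanted injured muscle (SD, n = 2 each). Ifi30, the thiol reductase, alone of the 6 had a lower mean in transplanted injured muscle. It gave 8474 and 7229 in transplanted and 10392 and 10264 in untransplanted injured muscle.

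Class I presentation genes, which load peptides of the cell's own proteins, had a median of 0.07 over 12 tested genes, with 0 called in the 8-array fit and 0 with only the 4 arrays fitted. H2-K1, a classical class I heavy chain, gave 20515 and 19605 in transplanted and 15679.6 and 17520.1 in untransplanted injured muscle. The 9 genes of the class II transcription complexes on the X and Y boxes had a median of 0.10, with 0 called in either fit. Among them Rfx5, which binds the X box, averaged 135 ± 12.6 in transplanted and 207 ± 5.66 in untransplanted injured muscle (adjusted p = 0.897 in limma). The 7 genes of interferon gamma signalling had a median of 0.25 with 0 called in either fit, and Ifng itself averaged 54.3 ± 3.78 in transplanted and 33.9 ± 10.2 in untransplanted injured muscle.

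Of 6 costimulation genes 0 were called in the 8-array fit, and the 4-array fit called Cd86, a ligand for T cell CD28, lower. Cd86 gave 553 and 559 in transplanted injured muscle and 1186 and 1104 in untransplanted injured muscle (log2 fold change -1.04, SE 0.29, adjusted p = 0.250 in limma on all 8 arrays). Prdm1, which represses Ciita in plasma cells, was the only called gene of 7 regulators in the 4-array fit, and it was lower too, at 204 and 216 in transplanted and 432 and 490 in untransplanted injured muscle. In that 4-array fit 5.42% of all genes were called lower and 2.51% higher.

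**Figure D4:**
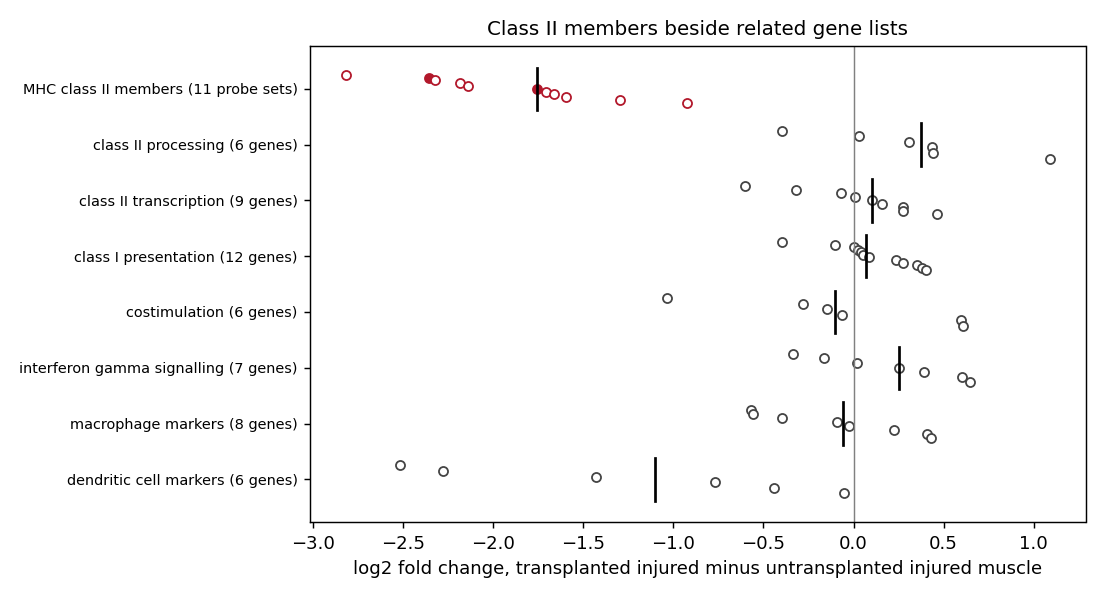
Log2 fold changes in transplanted against untransplanted injured muscle for the 11 MHC class II probe sets and for the tested genes of 7 related lists; each point is 1 probe set or gene, black bars are medians and filled points have an adjusted p under 0.05 in limma on all 8 arrays. The class II median is -1.75, the class II processing median 0.37, the class I median 0.07, the macrophage marker median -0.06 and the dendritic cell marker median -1.10.

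Markers of the cells that make class II molecules differed in part between the injured groups. The summed intensity of 6 dendritic cell markers, of 8 listed, was 573 and 516 in transplanted injured muscle, 1432 and 1595 in untransplanted injured muscle, 1271 and 1847 in uninjured muscle and 2172 and 2539 in bone marrow. Up to 3 of the 6 were under 38.4 on an array, and none was listed at 0. Their median log2 fold change between the injured groups was -1.10, with 0 of 6 called in the 8-array fit and 4 called lower with only the 4 arrays fitted (Ccr7, Cd209a, Flt3 and Itgax). Cd209a, a lectin of monocyte-derived dendritic cells, gave 83.6 and 84.7 in transplanted and 474 and 526 in untransplanted injured muscle. Ccr7, the homing receptor of migrating dendritic cells, gave 66.6 and 47.4 in transplanted and 293 and 283 in untransplanted injured muscle.

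The summed intensity of 8 macrophage markers was 77250 and 73450 in transplanted and 77744 and 84234 in untransplanted injured muscle, with 0 of 8 called in the 8-array fit and 1, Mertk, called lower with only the 4 arrays fitted. Fibroblast markers summed to 4299 and 4589 in transplanted and 22521 and 22658 in untransplanted injured muscle, and mast cell markers to 315 and 260 in transplanted and 3346 and 2975 in untransplanted injured muscle. With only the 4 arrays fitted, 7 of 7 fibroblast markers and 5 of 8 mast cell markers were lower, and in the 8-array fit 0 of 7 and 3 of 8. Over all genes the 4-array fit called 5.42% lower and 2.51% higher, and the 8-array fit 0.274% and 0.0421%. Markers of natural killer and cytotoxic cells went the other way in part. Their sum over 7 of 8 listed genes was 3814 and 3799 in transplanted and 679 and 721 in untransplanted injured muscle. The 8-array fit called 2 of 7 higher, Gzma and Gzmb, both granule proteases, and the 4-array fit also Nkg7 and Prf1. Gzma gave 1660 and 1659 in transplanted and 85.1 and 73.8 in untransplanted injured muscle (log2 fold change 4.32, SE 0.37, adjusted p = 0.0123 in limma). Gzma and Gzmb, averaging 1660 and 1319, made up most of the transplanted sum. Of the uncalled genes, Klrd1 averaged 305 ± 72.3 in transplanted and 300 ± 26.0 in untransplanted injured muscle. Eomes averaged 48.1 ± 15.1 and 49.7 ± 6.39, and Ncr1 49.2 ± 1.88 and 30.4 ± 2.49 (SD, n = 2 each). T cell markers summed to 206 and 217 in transplanted and 333 and 354 in untransplanted injured muscle over 6 genes. Of these 0 were called in the 8-array fit, and Cd4 was called lower in the 4-array fit, at 5.48 and 10.4 in transplanted and 122 and 133 in untransplanted injured muscle. The gap between the T cell sums rests mostly on Cd4. Cd3d averaged 83.2 in transplanted and 49.0 in untransplanted injured muscle, and Cd28 61.4 and 61.2. Cd3e, Cd3g and Cd8a averaged 26.2, 17.9 and 15.2 in transplanted and 36.6, 42.0 and 27.2 in untransplanted injured muscle. Muscle fibre markers summed to 248 and 209 in transplanted and 986 and 891 in untransplanted injured muscle, with 2 of 8 called lower in the 8-array fit. Of 8 neutrophil and 8 endothelial markers 0 were called in that fit. With only the 4 arrays fitted, 3 of 8 muscle fibre markers were called lower and 1 of 8 endothelial markers, Kdr, higher. The part of dendritic, mast, natural killer and other cell content in the lower class II values was not tested.

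After injury without a transplant, 10 of 11 class II probe sets had a positive log2 fold change against uninjured muscle, with a median of 0.81 against -0.14 over all probe sets, and 2 passed the test. Against a background of 12.1% of probe sets called higher, 2 of 11 is near that share. The 2 were the H2-Aa probe set 1435290_x_at and the H2-Ab1 probe set 1451721_a_at, which rose by 3.32 (SE 0.96, adjusted p = 0.0376 in limma). H2-Oa was the exception in sign. The count moved with the uninjured muscle array used. Without uninjured replicate 2, 6 rose, against 20.2% of all probe sets. Without uninjured replicate 1, 3 rose, against 13% of all probe sets, and H2-Oa fell (by 2.68), as did 12.2% of all. Without any 1 of the other 6 arrays 1 rose, where 3.74% to 11.9% of all did.

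Of 6 tested class II processing genes, 5 rose in untransplanted injured against uninjured muscle, where 8.77% of all genes rose. Ifi30, the endosomal thiol reductase, averaged 10328 ± 90.8 in untransplanted injured and 2208 ± 501 in uninjured muscle (log2 fold change 2.24, SE 0.21, adjusted p = 0.00100 in limma). Among class I genes 6 of 12 rose and 1 fell, with B2m, the light chain, at 16751 ± 569 in untransplanted injured and 6379 ± 2414 in uninjured muscle. Of the 9 transcription genes 3 fell (Crebbp, Nfyc and Rfx5), where 15.1% of all genes fell, and 0 rose. Ifng fell by 2.94 (SE 0.41, adjusted p = 0.00306 in limma), at 33.9 ± 10.2 in untransplanted injured and 296 ± 128 in uninjured muscle, and Ifngr2, a chain of its receptor, rose by 3.72 (SE 0.53, adjusted p = 0.00336 in limma). The macrophage marker sum was 77744 and 84234 in untransplanted injured and 18555 and 33777 in uninjured muscle, and 7 of 8 such markers rose.

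In transplanted injured against uninjured muscle 3 of 11 class II probe sets fell, against 18.5% of all probe sets, and 0 rose. They were H2-Eb1, H2-Oa and the H2-Ab1 probe set 1450648_s_at, which fell by 1.74 (SE 0.39, adjusted p = 0.0132 in limma). The median of the 11 was -0.32, against -0.19 over all probe sets. Without uninjured replicate 1, 8 fell, against 16.7% of all probe sets. Without uninjured replicate 2, 3 fell and 3 rose, near the shares of all probe sets, 20.4% and 21%. In that fit 1451721_a_at of H2-Ab1 had a log2 fold change of 3.06 and 1425477_x_at of H2-Ab1 one of 2.23. The processing genes again rose, 5 of 6 against 10.5% of all genes, with Ctsl at 15234.5 ± 2202 in transplanted injured and 2545 ± 1057 in uninjured muscle.

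Between uninjured muscle and bone marrow 0 of 11 class II probe sets were called in limma, where 4.83% of all probe sets were called higher and 1.25% lower. Before adjustment 0 members had a p under 0.05 in limma either, against 19.4% of all probe sets. The median log2 fold change was -0.40. The 2 uninjured arrays differed from each other by 19.8-fold for H2-Ab1 1425477_x_at, 13.9-fold for H2-Ab1 1451721_a_at and 7.47-fold for H2-Aa 1452431_s_at. For the other probe sets of the same 2 genes, 1450648_s_at and 1435290_x_at, they differed by 2.01-fold and 1.48-fold. Replicate 1 was the lower array for all 11, and it was the array with the higher Gapdh and beta-actin 3' to 5' ratios. The median intensity over all probe sets but the controls was also lower on it, at 67.1 against 75.8 on replicate 2. The part of RNA quality in the difference between these 2 arrays was not tested. Without uninjured replicate 2, 7 of 11 were called lower in uninjured muscle than in bone marrow, against 11.4% of all probe sets. Without uninjured replicate 1, 0 were called and the median was 0.34.

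Against bone marrow, 1 class II probe set rose in untransplanted injured muscle and 1 fell, where 15.5% of probe sets were called in each direction. H2-Aa 1435290_x_at rose by 1.67 (SE 0.21, adjusted p = 0.00109 in limma), and H2-Oa fell. In transplanted injured muscle against bone marrow all 11 fold changes were negative, with a median of -1.24 against -0.19 over all probe sets, and 3 passed the test against 17.4% of all probe sets. These 3 were H2-Eb1, H2-Oa and H2-Ab1 1450648_s_at, which fell by 1.40 (SE 0.39, adjusted p = 0.0284 in limma). Without uninjured replicate 1 or 2 in the shared spread, 7 or 6 fell in transplanted injured muscle, against 23.6% of all probe sets in each fit. In untransplanted injured muscle 6 were then called, 5 higher and 1 lower, against 21.1% or 21% of all higher and 22% lower. The median log2 fold change of the 11 in untransplanted injured muscle was 0.84 in the 8-array fit. Without untransplanted injured replicate 1 or 2 it was 0.90 or 0.82, and without bone marrow replicate 1 or 2 it was 0.28 or 1.17. Both injured groups were compared with the same bone marrow and uninjured muscle arrays, so the values of these comparisons are not independent.

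Ranked by group mean, untransplanted injured muscle was highest for 9 of the 11 probe sets and bone marrow for 2, H2-Oa and Ciita 1421210_at. Transplanted injured muscle was lowest for 10, and uninjured muscle for H2-Ab1 1451721_a_at. Few neighbours in these orders passed the test against each other. They were untransplanted injured muscle over bone marrow for H2-Aa 1435290_x_at, and bone marrow over transplanted injured muscle for H2-Eb1 and for H2-Ab1 1450648_s_at.

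The genes whose log2 profile over the 8 arrays was closest to the mean of H2-Aa, H2-Ab1, H2-Eb1 and Cd74 were sought among 9502 others, each profile centred on its own mean. The measure was the root mean square difference. Gpr132, a receptor coupled to G proteins, came first at 0.30, but its intensities of 12.9 to 52.8 were low. Cyp27a1, a mitochondrial sterol hydroxylase, followed at 0.32, with 318 and 332 in transplanted injured muscle, 904 and 812 in untransplanted injured muscle, 343 and 679 in uninjured muscle and 354 and 368 in bone marrow. Its untransplanted injured arrays were above all 6 others. Qsox1, Rhbdf1 and Clec11a came next at 0.34, 0.35 and 0.35. For Ciita, represented by its probe set 1421210_at, the closest were Myl6 at 0.18, Trp53i13 at 0.19, Nckipsd at 0.22, Nrm at 0.24 and Agpat3 at 0.27. These are descriptions over arrays that share their scaling, and they carry no test.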

How the data were processed

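Total RNA (1 µg per sample) of CD45+/Sca1+ cells was labelled with biotin and hybridised to 8 Affymetrix Mouse430A arrays, per the labels' protocols. The deposited values are 1 intensity per probe set on a linear scale. The submitters' processing notes name GCOS without a version or a role, and the sources used here do not give the probe summary and background steps. The deposited intensities had been scaled by the authors to a trimmed mean of about 250 (checked: 250.09 to 250.12 on the 8 arrays after dropping 2% of probe sets at each end).

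Of 22690 probe sets, 64 controls were set aside. Of the 22626 others, 20380 had 1 gene symbol in the platform annotation, 691 several and 1555 none, with symbols updated through RefSeq. Intensities under 1 were set to 1, then 4, the value at the 10th percentile, was added before taking log2. Fold changes are on that scale, which understates those of dim probe sets. Tests covered the 16289 probe sets (9506 named genes) that reached 38.4, the 40th percentile of all values, on 2 or more arrays. A gene of a list stands for its probe set with the highest mean. Where both arrays of a group were under 38.4, folds were bounded against that value, which is no detection limit.

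All 8 arrays were fitted in limma 3.58.1 (R 4.3.3) with 1 mean per group and a trend on intensity. Tests were two-sided, p-values were Benjamini-Hochberg adjusted within each comparison over every tested probe set, and 0.05 was the threshold (4 residual and a median of 4.07 prior degrees of freedom). Precision is limited by the small number of arrays, with a median SE of 0.45 for the log2 fold changes. The fit was also run on simulated arrays that had the same spread in all 4 groups. Most class II probe sets spread more in uninjured than in injured muscle, so that run does not bear on their calls. No probe set was compared in level with another. The class II genes were all described. From each other list at most the 3 genes with the smallest p of a comparison were to be named. The names of some further genes, among them genes called with only 4 arrays fitted, were added after their values were seen. The members and lists were chosen with earlier results of these data known. Alternatives were quantile normalization, median centring, a pseudocount of 1 or of 17.1, no filter, a filter at 111, no trend, array weights, fitting only the 4 arrays compared, a replicate block, and leaving out each array. Promoter sequences are from RefSeq, build GRCm38.p6.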

Additional observations from a re-analysis of the deposited data

How the results depend on the processing

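In transplanted against untransplanted injured muscle, where 2 of 11 class II probe sets were lower, quantile normalization gave 1, no intensity trend 0, array weights 9, the 4 arrays compared 9, and leaving out 1 array 0 to 8. Every tested class II probe set kept a negative fold change there in the 8-array fit and all 18 alternatives, and the median ran from -2.18 to -1.59. For all 11, both transplanted arrays lay below both untransplanted ones, so only quantile normalization and median centring could have changed a sign. In untransplanted injured against uninjured muscle, where 2 were called, quantile normalization, no trend and the 4 arrays compared each gave 1, array weights 4, and leaving out 1 array 1 to 6. In transplanted injured against uninjured muscle 3 were called, and 2 to 8 with 1 array left out. In untransplanted injured muscle against bone marrow 2 were called, 4 with array weights, 6 with the 4 arrays compared and 1 to 6 with 1 array left out. In transplanted injured muscle against bone marrow 3 were called, 5 with array weights, 6 with the 4 arrays compared and 2 to 7 with 1 array left out. In uninjured muscle against bone marrow 0 were called, and 0 to 7 with 1 array left out. With 1 array left out, the lone array of a group is assumed to vary like the other groups. The causes of these changes were not tested, except that fits without an uninjured muscle array drop its spread by construction. The other alternatives kept every count of class II probe sets within 1.5-fold. Of all 16289 probe sets, no intensity trend called 40 between the 2 injured groups. In untransplanted injured against uninjured muscle quantile normalization called 4067 and no trend 3954. Against bone marrow, array weights called 6403 in untransplanted and 6559 in transplanted injured muscle, in either direction. The 4 arrays compared called 6160 and 6318 there. Further counts over all probe sets are given below.

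Over all probe sets the call rate between the 2 injured groups was the least stable: 41 in the 8-array fit, 9 with quantile normalization, 24 with median centring, 62 with the pseudocount of 17.1, 811 with array weights, 1125 with the 4 arrays compared, 15 with the replicate block, and 0 to 268 with 1 array left out. Elsewhere, array weights gave 478 and 2699 and the 4 arrays compared 288 and 2071, against 991 and 4235 in the 8-array fit, for uninjured muscle against bone marrow and untransplanted injured against uninjured muscle. The 4 arrays compared gave 3011 against 5283 for transplanted injured against uninjured muscle. Median centring moved the median over all probe sets (log2) from -0.03 to -0.21, from -0.14 to 0.00 and from -0.19 to 0.09 in these 3 comparisons, and the share of calls that were higher from 79.4% to 69.4%, from 46.6% to 56.6% and from 42.9% to 59.0%. Between the 2 injured groups it moved that median from 0.0048 to 0.14.

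The labels do not say whether replicate numbers pair the samples. Deviations of same-numbered arrays correlated at 0.31 between uninjured muscle and bone marrow and at -0.03 to 0.00 elsewhere. The values of -0.03 to 0.00 show no sign of pairing, but the 0.31 does not settle it for uninjured muscle and bone marrow. The source of that correlation was not tested. With the replicate block the count of class II probe sets stayed 2 in transplanted against untransplanted injured muscle, and it stayed as above (0, 2 or 3) in each of the other 5 comparisons.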
